A study of Mus musculus with 6 samples.

Results

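The genes described here are the regulators of the tumour suppressor p53 and genes that p53 is known to switch on, a set of 32 named by symbol with earlier results of these data known. They were looked up in the deposited table among probe sets paired with exactly 1 gene symbol, and the probe set with the strongest mean over the 6 arrays stood for each gene. Of the 32 genes, 28 were found among the 19938 genes tested. Cdkn1a lay only in a probe set paired with several symbols, and it, Trp53, Gdf15 and Bax are not analysed here. The level of p53 itself and of its best known cell cycle target is therefore absent from everything below. The arrays were made from mouse KSL cells, the cKit+Sca1+Lin- bone marrow fraction that holds the blood stem cells and the earliest progenitors. The 3 DKO samples came from mice with both alleles of Runx1 and Runx3 floxed and the Mx1-Cre transgene (Runx1fl/fl;Runx3fl/fl;Mx1-Cre+), and the 3 WT samples from littermates with the same floxed alleles and no transgene (Runx1fl/fl;Runx3fl/fl;Mx1-Cre-), all backcrossed to C57BL/6 for at least 3 generations. In Mx1-Cre mice an interferon-responsive promoter drives the recombinase. The labels' protocols give 7 injections of 600 µg pIpC, an RNA analogue that induces interferon, on alternate days from 4 weeks of age, while the sample descriptions call the cells untreated. The protocol text is shared by DKO and WT. Only the DKO mice carried the transgene, so Runx deletion and the transgene cannot be told apart. The design text has 3 mice pooled in each WT sample, and it does not state pooling for DKO and also counts 6 mice in all, so what 1 sample stands for is unsettled.

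Values are log2 signals of whole genes, so a difference of 1 is a doubling, and every difference is DKO minus WT. Correlations between arrays over all genes were 0.993 to 0.995 within DKO, 0.989 to 0.991 within WT and 0.976 to 0.98 between DKO and WT. Runx1 signal was 9.29 ± 0.08 in DKO and 8.47 ± 0.08 in WT, and Runx3 signal 7.38 ± 0.03 in DKO and 7.53 ± 0.06 in WT (SD, n = 3 each). A gene-level signal also reads exons outside a deleted part, so these values do not check the deletion, and DKO means the samples labelled so. Of 12 measured genes of the KSL gate and of stem cells 5 rose, 4 fell and 0 lay under the lower quartile of every array. By limma with an adjusted p under 0.05, 75% of them were thus called, beside 17.4% of all genes. Their differences ran from -1.32 for Flt3 to 1.95 for Slamf1, and the gene of Sca1 was not among the 12. Kit, the sorted receptor, had a mean signal of 10.49 in DKO and 9.75 in WT. In bulk samples such as these, fewer cells of a type and less RNA per cell cannot be told apart.

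p53 is a transcription factor that is kept low by the ubiquitin ligase Mdm2 and its relative Mdm4. After DNA damage, oncogene activity or ribosomal stress it escapes them, binds response elements built from 10-base units, and switches on genes for cell cycle arrest, cell death, DNA repair and metabolism, among them Mdm2, which closes a feedback loop. In blood stem cells p53 is known for restraining division and for removing cells with damaged DNA.

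In DKO cells 6 of the 28 measured genes rose and 0 fell, by limma with an adjusted p under 0.05. Trp53inp1, a stress-induced partner of p53, rose 2.39-fold, Btg2 1.56-fold, Mdm2 1.35-fold, Sesn1 1.34-fold, and Polk and Ccng1 1.26-fold each. Over all 19938 genes 9.71% rose and 7.69% fell, together 17.4%, beside 21.4% of the 28. Without DKO replicate 2 the count that rose was 3 (Mdm2, Btg2 and Trp53inp1), and without DKO replicate 3 it was also 3 (Btg2, Sesn1 and Trp53inp1). At an unadjusted p under 0.05, 10 of the 28 were higher and 4 lower, beside 30.9% of all genes in either direction. DKO values lay wholly above WT values for 9 genes and wholly below for 3, beside 16.2% and 19.6% of all genes, together 35.8%. The median difference was 0.05 over the 28 and -0.04 over all genes. The set thus held a few genes that rose and a larger number, 22, that did not pass in either direction.

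**Figure D1:**
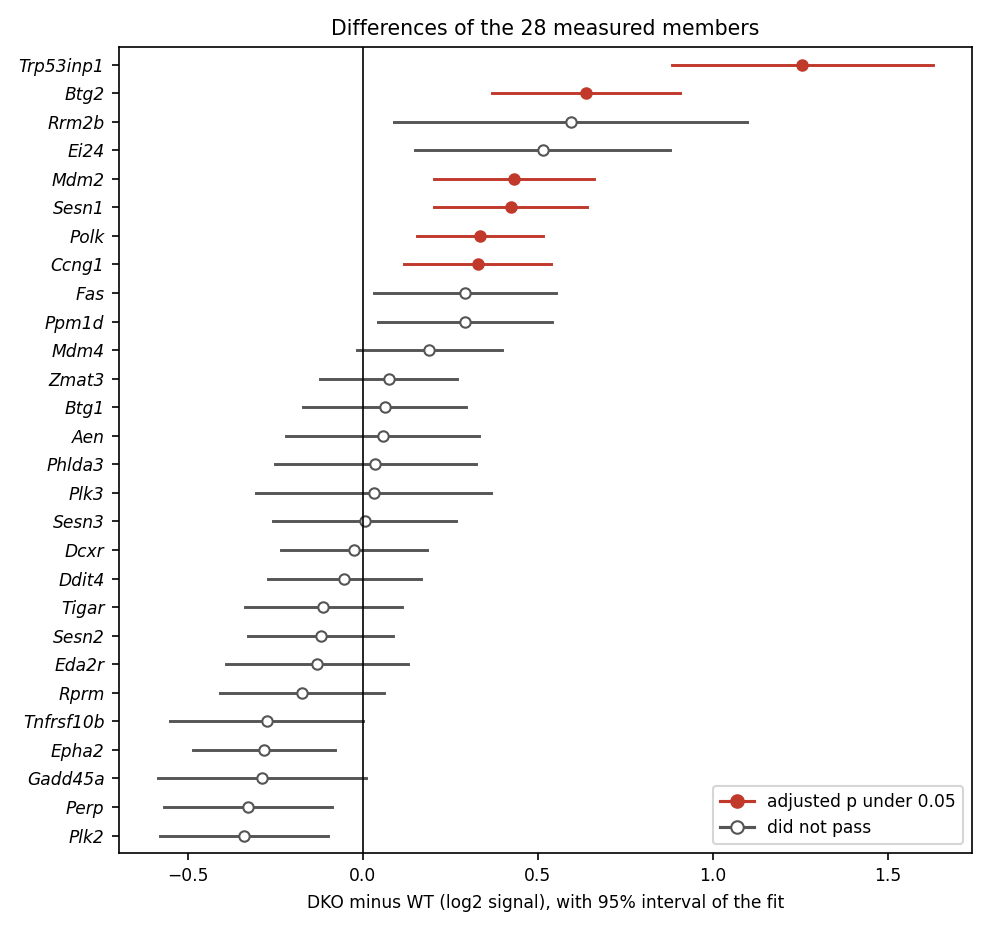
Difference between DKO and WT (log2 signal) of each measured gene, with the 95% interval of the fit, ordered by size. Filled red points are the 6 genes that rose, from 1.26 for Trp53inp1 to 0.33 for Ccng1, and open points are the 22 that did not pass, from 0.59 for Rrm2b to -0.34 for Plk2.

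All 6 genes that rose had strong signals. Of the 28 genes, 10 lay among the 25% of genes with the strongest mean signal, and 6 of these 10 rose, where 24.8% of all genes in that stratum rose and 9.81% fell. None of the 18 genes in the weaker strata passed. Of these, 8 lay in the next strongest stratum, where 10.2% of all genes rose and 11.3% fell, 6 in the one below it (2.79% and 6.12%) and 4 in the weakest (1.1% and 3.57%). Gene span, the distance from a gene's start to its end, differed less: the median span was 19.9 kb for the 6 that rose and 17.3 kb for the 22 others, and 2 of the 6 lay in each of the shortest, middle and longest strata of span, in which 4.29%, 9.14% and 15.8% of all genes rose.

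**Figure D2:**
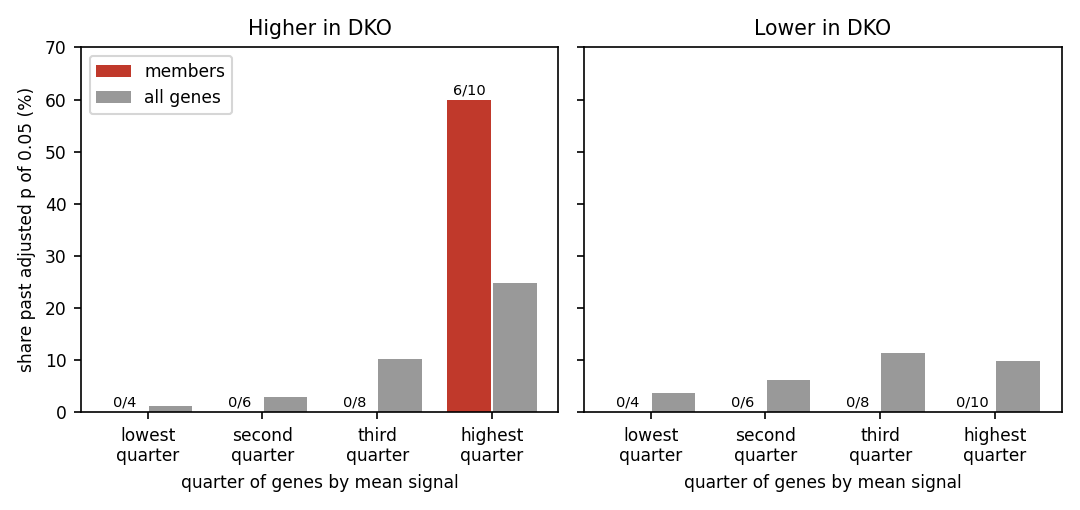
Share of genes past an adjusted p of 0.05 by mean signal, with genes higher in DKO on the left and lower on the right, in 4 strata of equal size. Red bars are the p53 genes, with their counts above, and grey bars all genes. The 6 calls all lie among the 10 p53 genes of the strongest stratum.

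The sequences just upstream of the genes that rose are shown for the elements they hold. RefSeq promoters of build GRCm38.p6, 300 bases from 250 before to 50 after a gene's start, were given for 23 of the 28 genes, and for 5 of the 6 that rose. They were searched for the 10-base p53 unit, a palindrome that reads alike on either strand. The Runx motifs TGTGGT and TGCGGT were searched for on both strands, and do not overlap the p53 unit in the promoters shown. The p53 unit was matched as RRRCWWGYYY, where R is A or G, W is A or T and Y is C or T. Units with a mismatch, or outside the 300 bases, were not searched for, so a promoter without a match may still have one. A p53 unit stood in a promoter of 4 of the 5 genes that rose and 4 of the 18 that did not pass. The share was 9.55% over all 27025 genes in the table. Counted by promoter, a p53 unit stood in 4 of 7 from genes that rose and 5 of 20 from genes that did not pass. The 5 genes leave out the gene with the largest rise, which had no promoter given. Whether the genes that rose differ in this from those that did not pass was not tested. A Runx motif stood in a promoter of 2 of the 5 and 6 of the 18, beside 25% of all genes. No promoter of the 23 genes held a pair of p53 units within 13 bases of each other, which 0.0731% of all promoters did. The list was drawn up from known p53 targets, so more p53 units than in other genes is no finding, and a match is a run of letters and not a shown binding site. The promoters of the 4 genes follow, with p53 units as the 10-letter runs of capitals and Runx motifs as the 6-letter runs.
Mdm2, chr10:117710709-117711008, strand -: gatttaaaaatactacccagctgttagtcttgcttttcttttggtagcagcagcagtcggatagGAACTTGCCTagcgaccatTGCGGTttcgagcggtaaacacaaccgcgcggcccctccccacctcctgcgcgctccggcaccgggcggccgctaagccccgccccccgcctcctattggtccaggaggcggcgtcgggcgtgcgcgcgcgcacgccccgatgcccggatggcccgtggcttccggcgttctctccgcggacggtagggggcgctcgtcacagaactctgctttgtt
Ccng1, chr11:40755237-40755536, strand -: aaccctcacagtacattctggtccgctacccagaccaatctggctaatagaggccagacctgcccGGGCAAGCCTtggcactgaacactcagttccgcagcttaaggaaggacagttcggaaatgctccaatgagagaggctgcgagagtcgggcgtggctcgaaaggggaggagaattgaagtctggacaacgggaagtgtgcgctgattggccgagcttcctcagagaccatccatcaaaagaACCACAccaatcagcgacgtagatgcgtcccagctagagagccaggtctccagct
Sesn1, chr10:41887189-41887488, strand +: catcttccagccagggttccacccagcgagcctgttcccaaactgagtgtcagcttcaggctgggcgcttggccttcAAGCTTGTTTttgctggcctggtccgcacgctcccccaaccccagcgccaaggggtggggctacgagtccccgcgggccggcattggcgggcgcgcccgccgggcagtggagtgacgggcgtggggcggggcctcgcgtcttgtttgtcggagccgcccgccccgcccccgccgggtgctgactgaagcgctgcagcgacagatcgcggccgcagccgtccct
Polk, chr13:96519138-96519437, strand -: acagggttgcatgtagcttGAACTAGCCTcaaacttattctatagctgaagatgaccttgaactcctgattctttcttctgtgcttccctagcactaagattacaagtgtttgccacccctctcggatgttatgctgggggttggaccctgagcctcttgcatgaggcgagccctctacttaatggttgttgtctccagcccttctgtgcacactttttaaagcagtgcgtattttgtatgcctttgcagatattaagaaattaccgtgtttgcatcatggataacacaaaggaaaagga
In Mdm2 the p53 unit began at position -186 from the start, and the Runx motif at -167. In Ccng1 the p53 unit began at position -185, and the Runx motif, on the opposite strand, at -5. The p53 unit of Sesn1 began at position -173 and that of Polk at -231, each counted from the more downstream start of the gene. Sesn1 and Polk each have another promoter in the table, and those held neither motif. The promoter of Btg2, chr1:134079106-134079405, held neither.

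Among the regulators of p53, all 3 measured genes had DKO values wholly above WT values, as did 16.2% of all genes. Of the 3, 1 rose, Mdm2, and the others did not pass, where 9.71% of all genes rose. Mdm2 encodes the ubiquitin ligase that marks p53 for degradation. Its signal (probe set 10372668) was 7.80, 7.79 and 8.02 in DKO, against 7.34, 7.42 and 7.56 in WT. Every DKO value lay above every WT value, and the rise was 0.43 on the log2 scale (SE 0.102, adjusted p = 0.0179). Without DKO replicate 3, the highest sample, Mdm2 was at 0.36 and did not pass (adjusted p = 0.0748; between 0.0112 and 0.0748 over the 16 alternatives).

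Ppm1d encodes the phosphatase Wip1, which removes activating phosphates from p53 and from the damage kinases. Its signal was 7.86, 7.81 and 7.90 in DKO, against 7.56, 7.77 and 7.36 in WT. The groups did not overlap, but WT replicate 2 reached nearly to the DKO values, and the difference of 0.29 did not pass (adjusted p = 0.106). Without WT replicate 2 it was 0.40 and passed (adjusted p = 0.0326; between 0.0326 and 0.286 over the alternatives run). Mdm4, which binds p53 and blocks its activation domain, had 9.28, 9.25 and 9.28 in DKO, against 9.09, 9.21 and 8.95 in WT. That difference of 0.19 (95% interval -0.02 to 0.40) did not pass (adjusted p = 0.198), and it shrank to 0.07 with quantile normalisation and to 0.00 with a trend over signal and gene span removed. The log2 ratio of Mdm2 over Mdm4 within an array was -1.40 ± 0.12 in DKO and -1.65 ± 0.22 in WT (SD, n = 3 each), with overlapping values (two-sided exact permutation p = 0.3).

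Of 7 measured genes of cell cycle arrest and growth control, 2 rose (28.6%, beside 9.71% of all genes) and 5 did not pass. Btg2, an antiproliferative protein that binds the deadenylase complex which shortens mRNA tails, had 7.743, 7.998 and 7.997 in DKO, against 7.411, 7.055 and 7.359 in WT. DKO values were clear of WT values, and the rise was 0.64 (SE 0.12, adjusted p = 0.00625). It passed under all 16 alternatives, at 0.53 to 0.72. Ccng1 encodes cyclin G1, which guides a phosphatase to Mdm2. Ccng1 signal was 9.44, 9.62 and 9.58 in DKO, against 9.11, 9.27 and 9.27 in WT, a rise of 0.33 (SE 0.093, adjusted p = 0.0386) with no overlap. The call for Ccng1 was the least firm of the 6, since it was lost without any 1 of the 6 arrays. Its adjusted p was then 0.0534, 0.129 and 0.122 without DKO replicates 1, 2 and 3, and 0.0968, 0.052 and 0.0638 without WT replicates 1, 2 and 3. It was also lost with quantile normalisation at 0.22 (adjusted p = 0.148), after cyclic loess at 0.24 (0.123) and under a block for the replicate number at 0.33 (0.054).

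Plk2, a polo-like kinase induced by stress, pointed the other way, with 4.27, 4.19 and 4.38 in DKO, against 4.78, 4.45 and 4.63 in WT. All DKO values lay below all WT values, and the difference of -0.34 did not pass (adjusted p = 0.0566). Leaving out WT replicate 2 gave -0.43 and a pass (adjusted p = 0.0268; between 0.0268 and 0.171 over the alternatives run) and with array weights (0.0493). On each array Plk2 signal was under the lower quartile of all genes, which was 4.89 to 4.97 over the 6, which leaves the size of the difference uncertain. Gadd45a, a growth arrest gene of the damage response, had 6.96, 7.29 and 7.08 in DKO, against 7.17, 7.39 and 7.64 in WT, a difference of -0.29 (95% interval -0.59 to 0.01) with overlap. Btg1, the closest relative of Btg2, differed by 0.06 (95% interval -0.17 to 0.29), the kinase gene Plk3 by 0.03 (-0.30 to 0.37) and Rprm, an inhibitor of entry into mitosis, by -0.17 (-0.41 to 0.06).

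**Figure D3:**
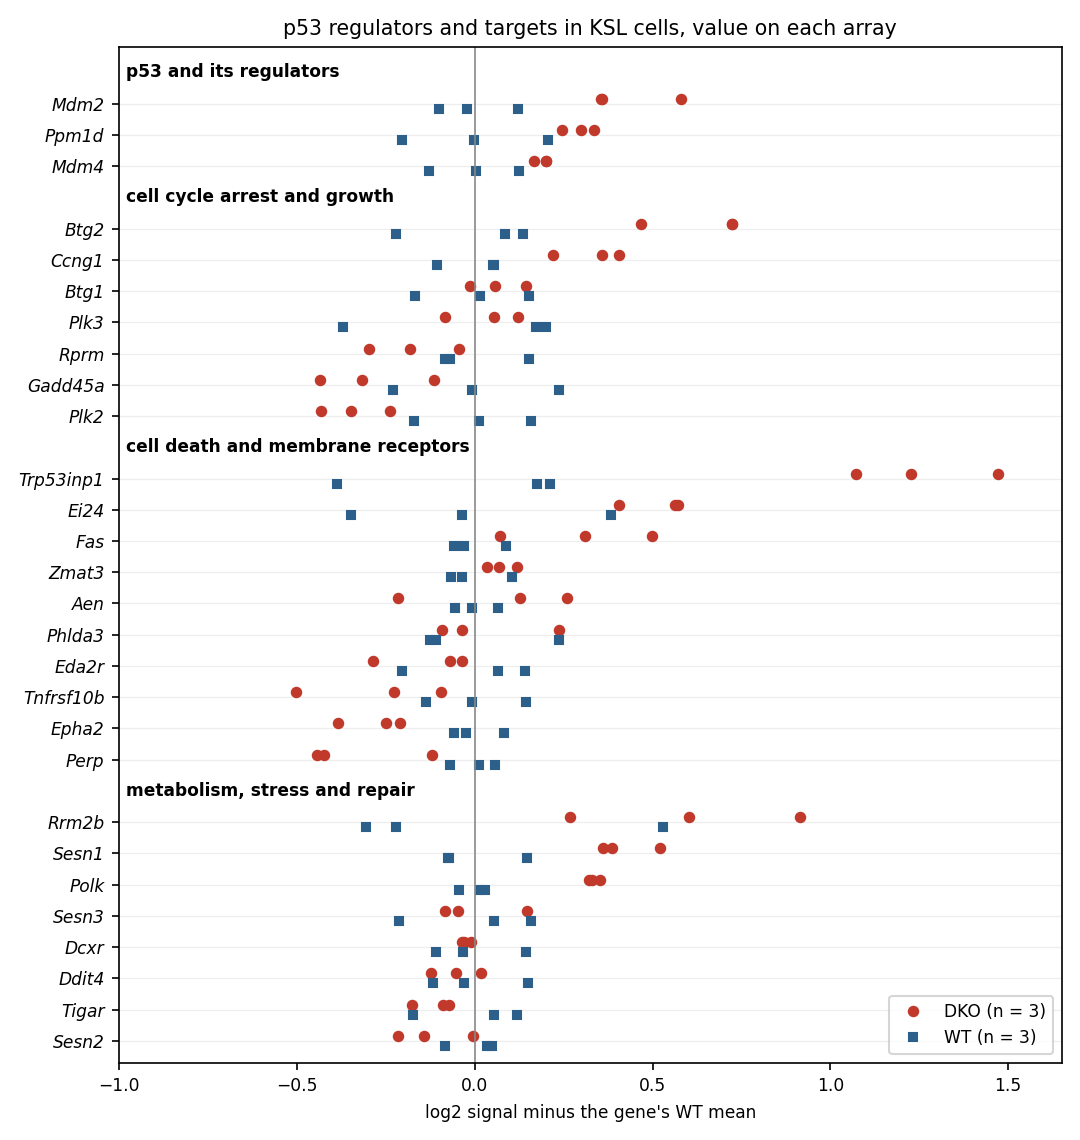
Signal of each gene on each array, as log2 signal minus the gene's WT mean, grouped by role. Red circles are the 3 DKO arrays and blue squares the 3 WT arrays. Trp53inp1 shows the widest gap, with DKO values of 8.40 to 8.80 beside WT values of 6.95 to 7.55, and the circles and squares overlap for 16 of the 28 genes.

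Of 10 measured genes of cell death and of membrane receptors, 1 rose and 9 did not pass. That share of 10% was near the 9.71% of all genes that rose. Trp53inp1 encodes a nuclear protein that is induced by stress, binds p53 and also acts in autophagy. Its signal (probe set 10503259) was 8.56, 8.80 and 8.40 in DKO, against 7.55, 6.95 and 7.51 in WT. Each DKO value was clear of each WT value, and the rise of 1.26 (SE 0.166, adjusted p = 0.00114) was the largest of the 28. It passed under all 16 alternatives, at 1.06 to 1.36.

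Ei24, an endoplasmic reticulum protein of the autophagy pathway, had 8.58, 8.42 and 8.59 in DKO, against 7.67, 8.40 and 7.98 in WT. WT replicate 2 nearly met the DKO values, and the difference of 0.51 did not pass (adjusted p = 0.0571). Without WT replicate 2 it was 0.71 and passed (adjusted p = 0.00613; between 0.00613 and 0.163 over the alternatives run), as it did with array weights (0.0366) and without the dimmest 25% or 50% of genes (0.0477 and 0.0402). The death receptor gene Fas had 4.72, 4.53 and 4.29 in DKO, against 4.31, 4.19 and 4.16 in WT, a difference of 0.29 with overlap (adjusted p = 0.12) at signals below the lower quartile of every array. Perp, a membrane protein of desmosomes, had 6.29, 5.99 and 5.97 in DKO, against 6.47, 6.34 and 6.43 in WT. The DKO values were all below the WT values, and the difference of -0.33 did not pass (adjusted p = 0.064). Without DKO replicate 1 it was -0.43 and passed (adjusted p = 0.0297; between 0.0297 and 0.205 over the alternatives run), and it passed without the dimmest 50% of genes (0.0417).

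Epha2, an ephrin receptor kinase, had 5.08, 5.12 and 4.95 in DKO, against 5.31, 5.27 and 5.41 in WT, again all lower and short of the threshold (-0.28, adjusted p = 0.06). It passed without the dimmest 25% of genes (0.0461). Tnfrsf10b, the mouse death receptor for the ligand Trail, had 5.59, 5.46 and 5.18 in DKO, against 5.55, 5.83 and 5.68 in WT, with 1 DKO value inside the WT range (-0.28, adjusted p = 0.162). The remaining 4 genes of this role overlapped and lay between -0.13 and 0.07. They were the ectodysplasin receptor gene Eda2r (95% interval -0.39 to 0.13), the Akt inhibitor gene Phlda3 (-0.25 to 0.32), the nuclease gene Aen (-0.22 to 0.33) and Zmat3, which encodes an RNA-binding zinc finger protein (-0.12 to 0.27).

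Of 8 genes of metabolism, stress and repair, 2 rose (25%, beside 9.71% of all genes) and 6 did not pass. Sesn1 encodes sestrin 1, a stress-induced protein that restrains the growth kinase mTORC1. Its signal was 8.50, 8.66 and 8.52 in DKO, against 8.28, 8.06 and 8.06 in WT, a rise of 0.42 (SE 0.098, adjusted p = 0.0166) with no overlap. The call was lost without DKO replicate 2 (0.37, adjusted p = 0.0666) or WT replicate 3 (0.39, adjusted p = 0.054), with quantile normalisation (0.30, 0.084) and cyclic loess (0.32, 0.0654), and with the trend over signal and gene span removed (0.24, 0.15). Sesn1 has the longest span of the 28 genes, 97863 bases.

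The other sestrin genes did not pass. Sesn2 had 5.58, 5.51 and 5.72 in DKO, against 5.76, 5.77 and 5.64 in WT (95% interval of the difference -0.33 to 0.09), and Sesn3 had 7.01, 7.24 and 7.05 in DKO, against 7.25, 6.88 and 7.15 in WT (-0.26 to 0.27). Ratios within arrays were compared for 5 pairs of related genes. The log2 ratio of Sesn1 over Sesn2 was 2.95 ± 0.18 in DKO and 2.41 ± 0.12 in WT, that of Sesn1 over Sesn3 1.46 ± 0.04 in DKO and 1.04 ± 0.13 in WT, that of Btg2 over Btg1 1.38 ± 0.09 in DKO and 0.81 ± 0.11 in WT, and that of Plk2 over Plk3 -0.76 ± 0.11 in DKO and -0.39 ± 0.19 in WT (SD, n = 3 each). In these 4 pairs DKO and WT ratios did not overlap, each with a two-sided exact permutation p of 0.1, the smallest that 3 samples against 3 allow, and of 0.125 after Benjamini-Hochberg adjustment over the 5 pairs. The test could not pass at this size. Sesn1 and Btg2 rose singly, so their ratios are no separate result. Plk2 and Plk3 did not pass singly, and Plk2 signal was under the lower quartile on all 6 arrays.

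Polk encodes polymerase kappa, which copies past damaged bases. Its signal was 7.72, 7.70 and 7.69 in DKO, against 7.32, 7.38 and 7.40 in WT, the tightest groups of the genes that rose, with an SD of 0.0158 in DKO and 0.0381 in WT. The rise was 0.33 (SE 0.08, adjusted p = 0.0195). The size held at 0.31 to 0.35 without any 1 array, while the call was lost without DKO replicate 1, 2 or 3 (adjusted p = 0.0719, 0.0609 and 0.0607), with the replicate block (0.0525) and with the trend over signal and gene span removed (0.22, 0.105). Rrm2b, the p53-induced subunit of the enzyme that makes deoxynucleotides, had the widest spread, with 7.14, 7.79 and 7.48 in DKO, against 7.41, 6.57 and 6.65 in WT. Its difference of 0.59 was the third largest of the 28 and did not pass (adjusted p = 0.104), and WT replicate 1 lay inside the DKO range. Without WT replicate 1 it was 0.86 and passed (adjusted p = 0.00996; between 0.00996 and 0.29 over the alternatives run). The mTORC1 inhibitor gene Ddit4 differed by -0.05 (95% interval -0.27 to 0.17), the fructose bisphosphatase gene Tigar by -0.11 (-0.34 to 0.11) and the sugar reductase gene Dcxr by -0.02 (-0.23 to 0.18).

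The arrays of a group did not order the genes alike. WT replicate 2 was the lowest of the WT arrays for 13 of the 28 genes, WT replicate 1 for 8 and WT replicate 3 for 7, and the DKO replicates 1, 2 and 3 were the lowest of their group for 9, 9 and 10. The mean signal over the 6 genes that rose was 8.29, 8.43 and 8.37 in DKO, against 7.84, 7.69 and 7.86 in WT, and that over all 28 was 6.65, 6.70 and 6.65 in DKO, against 6.58, 6.50 and 6.56 in WT. The choice of the 6 fixes the direction of their mean, which is given as a description. The median SD of a gene was 0.107 in DKO and 0.138 in WT over the 28, beside 0.0985 in DKO and 0.125 in WT over all genes.

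**Figure D4:**
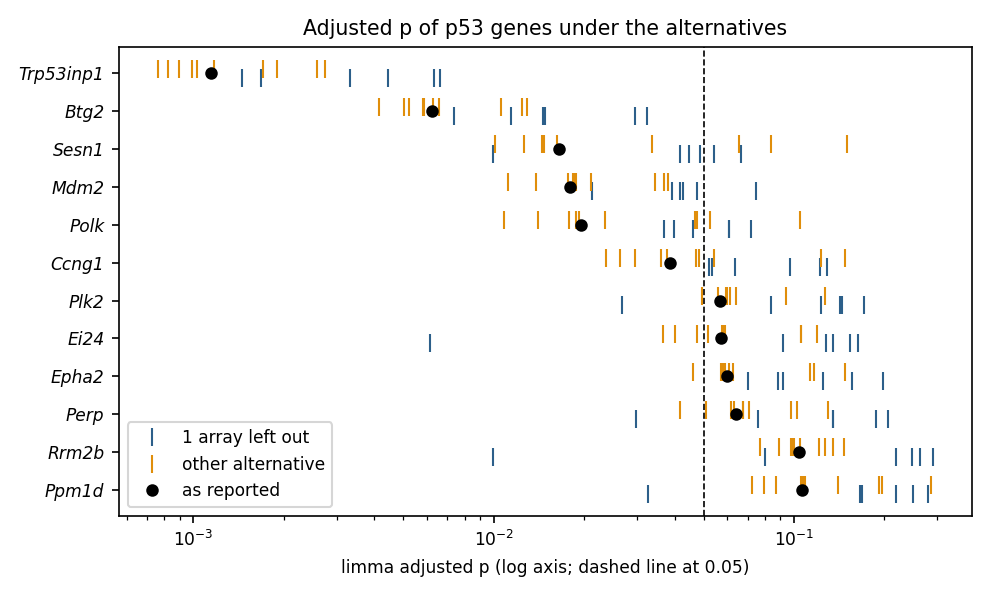
Adjusted p of the 6 genes that rose and of 6 others that passed under some alternative, on a log axis with a dashed line at 0.05. Black points are the values reported, blue ticks leave out 1 array and orange ticks change another step. Trp53inp1 and Btg2 stay left of the line throughout, and Ccng1 crosses it under 9 of 16 alternatives.

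Other genes of the pathway were read from the same fit, in 2 lists. Of 27 genes that act on p53 or beside it, 25 were measured, and 8 rose, 0 fell and 17 did not pass, so 32.0% were called, beside 17.4% of all genes, of which 9.71% rose. At an unadjusted p under 0.05, 9 were higher and 1 lower, beside 30.9% of all genes in either direction. Ep300, the acetyltransferase that acts as a coactivator of p53, had 8.89, 8.96 and 8.97 in DKO, against 8.26, 8.17 and 8.22 in WT, a rise of 0.72 (adjusted p = 0.000522). Atr, the kinase that answers stalled replication, had 8.11, 8.28 and 8.37 in DKO, against 7.49, 7.75 and 7.69 in WT, a rise of 0.61 (adjusted p = 0.00429). Pml, the scaffold of nuclear bodies that p53 visits, rose by 0.55 and Rchy1, another ubiquitin ligase for p53, by 0.54. These 4 passed under all 16 alternatives. Atm, Crebbp, Cop1 and Trim24 also rose, by 0.40, 0.37, 0.32 and 0.31. The median of the list was 0.06. As with the genes above, 7 of the 8 lay in the stratum of strongest signals, which held 17 of the 25 and in which 24.8% of all genes rose, and with the trend over signal and gene span removed 4 of the 25 rose. The count was 5 without DKO replicate 2 or DKO replicate 3.

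Of 29 further targets 27 were measured, and here 2 rose, 4 fell and 21 did not pass, with a median of -0.15. These calls were 22.2% of the list, again beside 17.4% of all genes. The stratum of strongest signals held 9 of the 27, of which 1 rose and 2 fell. In that stratum 24.8% of all genes rose and 9.81% fell. At an unadjusted p under 0.05, 2 were higher and 10 lower, beside 30.9% of all genes in either direction. DKO values lay wholly above WT values for 2 genes and wholly below for 9, beside 16.2% and 19.6% of all genes, together 35.8%. Apaf1, which assembles the caspase-activating apoptosome, had 8.44, 8.54 and 8.48 in DKO, against 7.52, 7.47 and 7.49 in WT, a rise of 0.99 (adjusted p = 0.000101). Thbs1, an inhibitor of vessel growth that platelets also carry, had 6.83, 6.65 and 6.55 in DKO, against 5.94, 5.78 and 5.92 in WT, a rise of 0.80 (adjusted p = 0.000929). Ndn, the growth suppressor necdin, which p53 induces in blood stem cells, had 4.01, 4.44 and 4.43 in DKO, against 6.41, 5.71 and 5.63 in WT. It fell by 1.62 (adjusted p = 0.000807), with DKO signals below the lower quartile of their arrays. Ptp4a3 and Psrc1, a phosphatase and a spindle protein gene, and Cd82, a tetraspanin gene, fell by 0.48, 0.47 and 0.51. The call for Cd82 was lost without DKO replicate 3 (-0.47, adjusted p = 0.0529) and that for Psrc1 without DKO replicate 2 (-0.41, adjusted p = 0.0546). Neither cell death gene of the BH3-only family passed, with Bbc3 at -0.23 (adjusted p = 0.156) and Pmaip1 at 0.07 (0.646).

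**Figure D5:**
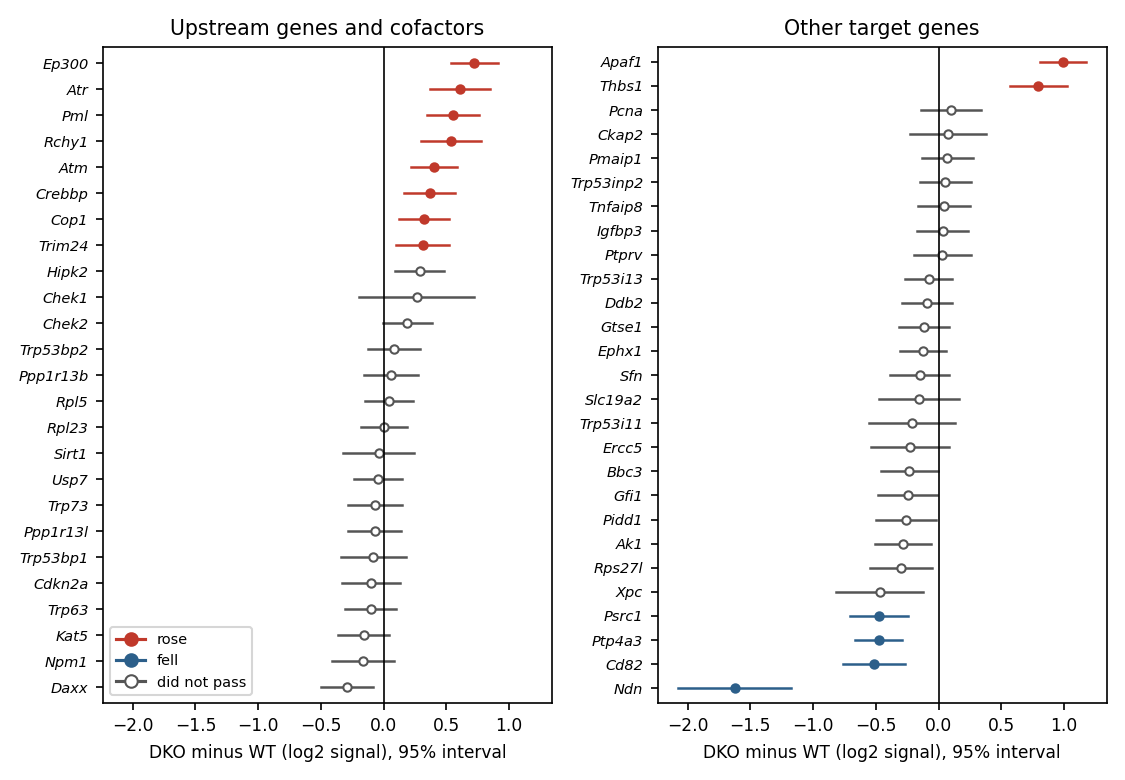
Differences between DKO and WT (log2 signal, with 95% intervals) of 25 genes upstream of or beside p53 and of 27 further targets. Red points rose, blue points fell and open points did not pass. All 8 calls on the left are rises, led by Ep300 at 0.72, and the calls on the right are 2 rises and 4 falls, from 0.99 for Apaf1 to -1.62 for Ndn.

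Markers of other cells and of interferon were read from the same fit, in which 9.71% of all genes rose and 7.69% fell. Against 17.4% of all genes, the share called was 60% for interferon, 72.7% for mast cell and basophil and 55.6% for megakaryocyte genes. It was 33.3% for granulocyte and monocyte, 30% for B cell and 25% for erythroid genes. For T and NK cell genes it was 8.33%, and for macrophage and dendritic cell genes 10%, both below the share of all genes. Of 20 measured interferon response genes 11 rose and 1 fell, with a mean signal per array of 7.23 to 7.37 in DKO and 6.76 to 6.84 in WT. Of 11 mast cell and basophil genes 5 rose and 3 fell (6.77 to 6.90 in DKO, 5.86 to 6.08 in WT, with 1 below the lower quartile on every array), and of 9 megakaryocyte and platelet genes 5 rose (6.98 to 7.64 in DKO, 6.62 to 6.71 in WT). Of 12 granulocyte and monocyte genes 4 fell (6.45 to 6.66 in DKO, 7.15 to 7.44 in WT, 1 below the quartile), of 10 B cell genes 3 fell (5.27 to 5.45 in DKO, 5.79 to 5.96 in WT, 3 below it) and of 8 erythroid genes 2 fell (6.84 to 7.11 in DKO, 7.10 to 7.33 in WT). Of 12 T and NK cell genes 1 fell (4.81 to 4.91 in DKO, 5.02 to 5.21 in WT, 5 below the quartile), and of 10 macrophage and dendritic cell genes 1 rose (5.50 to 5.75 in DKO, 5.52 to 5.63 in WT, 1 below it). The part of these shifts in the p53 genes' values was not tested.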

How the data were processed

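Expression was measured on 6 Affymetrix GeneChip Mouse Gene 1.0 ST arrays, 3 DKO and 3 WT, grouped by the labels. The deposited values are log2 signals, 1 per probe set and array, made by the authors with Affymetrix Expression Console 1.0, per the submitters' processing notes. RMA at gene level is named in the titles, and MAS 5.0 in the design text. The deposited range, 1.25 to 13.7 with array medians of 5.88 to 5.91, is that of log2 RMA values. No source used here gives the background settings or the build. Of 35556 probe sets, 21789 had exactly 1 symbol in the platform annotation, 1621 several and 12146 none. The strongest probe set per gene left 19938 genes, with no filter on dim signals. limma 3.58.1 in R 4.3.3 (lmFit, eBayes) compared DKO with WT, two-sided, with Benjamini-Hochberg adjustment over all genes, a threshold of 0.05, and 5.52 prior beside 4 residual degrees of freedom. The script was tested on simulated data, where it recovered 82% of changes of size 1 and 23% of changes of size 0.5. A gene that did not pass is therefore not shown to be unchanged. Arrays had no duplicates, and the number of arrays limits the precision. The labels call the samples biological replicates. The genes, lists and tests were chosen with earlier results of these data known. Members past the threshold, those near it and up to 4 other pathway genes per list and direction are named with values. Bbc3, Pmaip1, Kit, Flt3, Slamf1 and the smaller upstream rises were named after their values were seen. The 16 alternatives left out each array in turn, removed a loess trend over signal and gene span, blocked on the replicate number, weighted arrays, used eBayes with a trend and robust, averaged all probe sets of a gene, dropped dim genes at 2 depths, or rescaled the arrays by cyclic loess, by quantiles or by their medians. Gene spans and promoters are RefSeq's, on GRCm38.p6, matched by Entrez number and symbol.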

Additional observations from a re-analysis of the deposited data

How the results depend on the processing

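Over 16 alternatives, the direction of each of the 6 p53 genes that rose was kept, and 2 of them, Trp53inp1 and Btg2, also kept their call under every one. Of the 28 p53 genes, 4 rose with quantile normalisation, cyclic loess, the replicate block and the trend over signal and gene span removed, and 3 to 7 rose when 1 array was left out. A different gene passed as lower in each of 3 settings, Plk2 with array weights, Epha2 with the dimmest 25% of genes dropped and Perp with the dimmest 50% dropped, 1 gene in each, and 0 to 1 fell when 1 array was left out. Among the genes beside p53, the count that rose was 5 with quantile normalisation and cyclic loess, 4 with the trend removed and 5 to 8 when 1 array was left out. The count that fell was 1 with quantile normalisation and without the dimmest 25% or 50% of genes, and 0 to 1 when 1 array was left out. Of the further targets, 2 rose under every alternative, and 3 to 6 fell when 1 array was left out. Over all genes, 1250 to 1868 rose and 843 to 1388 fell when 1 array was left out. The cause of these shifts was not tested. The replicate number as a block gave 1772 rises and 1272 falls over all genes, and 4 rises and 0 falls among the p53 genes, where Ccng1 and Polk lost their calls. The correlation of deviations between samples of the same number was -0.01, -0.10 and -0.04, and none correlated best with its own number. Values this near 0, from 3 samples per group, cannot settle whether the numbers pair the samples.

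Differences near 0 changed sign, with no call on either side. Sesn3 was at -0.040 with quantile normalisation, -0.017 with cyclic loess, -0.0069 with array weights and -0.055 with the trend removed. With 1 array left out, Sesn3 lay between -0.10 and 0.084, Phlda3 between -0.064 and 0.15, Btg1 between -0.021 and 0.14, Plk3 between -0.15 and 0.13, Aen between -0.044 and 0.19, Ddit4 between -0.11 and 0.021 and Dcxr between -0.080 and 0.047. Ddit4 was at 0.027 and Dcxr at 0.040 with the trend removed. Weak signals limit the dimmest genes, of which 3 of the 28 were under the lower quartile on all 6 arrays.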
